A study of Danio rerio with 8 samples.

Results

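Rab GTPases, the family of small GTP-binding proteins that direct membrane traffic, were followed here through 8 RNA-seq libraries of adult zebrafish cells. Members were the rows of the counts table whose Ensembl gene ID carries a symbol made of rab and a digit, with or without later letters. Names that start with rab3gap, rab3ip, rab3il and rab11fip, which belong to regulators and partners of Rabs, were left out, as was rab5if, a Rab5 interacting factor that is not a GTPase. The rule took 57 of the 28272 rows of the table. They stand for 50 symbols and 35 Rab numbers, because 6 symbols are shared by 13 rows, and these rows are told apart by their Ensembl ID. The table of gene names holds 15 further Rab IDs that have no row in the counts table. Those of rab27a, rab38, rab6a and rab21 are among them, and none could be analysed here.

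The study set 4 libraries of melanoma cells against 4 libraries of cells that the labels call scale melanocytes. Both groups came from adult fish of 1 strain, whose alleles include the transgene Tg(mitfa:BRAFV600E), EGFP driven by mitfa and alb(b4), so the fish behind both groups carried the oncogene. Both transgenes are driven by the promoter of mitfa, a pigment cell transcription factor, and EGFP-positive cells without pigment were taken from each source by cell sorting. RNA was read to between 86888494 and 100270657 counts per library. In the libraries labelled scale melanocytes 14 pigment cell marker rows summed to between 77.3 and 132 CPM (read counts relative to the size of each library), against 2130 to 12289 CPM in melanoma, while 12 epidermal marker rows summed to between 475 and 798 CPM in melanoma and between 55346 and 118325 CPM in the scale libraries. Markers thus went against the label, and these libraries are called scale libraries here. The 10 dissociation stress rows summed to between 1836 and 6449 CPM in melanoma and between 95416 and 157798 CPM in the scale libraries, and the 12 fibroblast and scale bone rows to between 19 and 66.8 CPM in melanoma and between 499 and 8236 CPM in the scale libraries. Most of the stress sum in the scale libraries came from hsp70.1, at 83287 to 137360 CPM, against 574 to 2880 CPM in melanoma. Of the 10 stress rows, 7 were called lower in melanoma and none higher, and the uncalled egr1 had a positive log2 change of 0.40. The part of the stress, fibroblast and scale bone rows in the Rab values was not tested. Whether each library had its own fish is not on the labels. The spread that the p-values rest on may therefore be technical.

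Rab proteins switch between a GDP-bound and a GTP-bound form. A Rab is prenylated by Rab geranylgeranyl transferase, is loaded with GTP on a membrane by a guanine nucleotide exchange factor (GEF), binds effectors such as motors, tethers and coats, and is turned off by a GTPase-activating protein (GAP), after which it returns to the cytosol. Each Rab marks certain membranes, and mammalian pigment cells depend on several: Rab32 and Rab38, activated by the HPS1 and HPS4 pair, bring melanin enzymes to the melanosome, and Rab27a with melanophilin and myosin Va carries the melanosome along actin. Roles below are those known from mammals unless stated, and members are grouped by Rab number. Levels are CPM scaled with TMM factors, given as mean ± SD over n = 4 libraries in each group. Library values are listed for melanoma replicates 1 to 4, and then for scale replicates 1 and 2 and the first and second column of scale replicate 3, since 2 columns carry that name. Changes are log2 fold changes ± SE of melanoma over scale libraries. They come from the quasi-likelihood test of edgeR, and called genes have a Benjamini-Hochberg adjusted p under 0.05 over the 26749 genes tested. CPM are not corrected for gene length, so levels are compared between libraries and not between genes. In sorted bulk cells, fewer cells of a type and less RNA per cell cannot be told apart.

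Of the 57 Rab rows, all of which passed the filter on low counts, 16 were higher and 8 lower in melanoma, and 33 were not called. That is 28.1% higher and 14% lower, where 21.7% of all tested genes were higher and 15.2% lower. The median Rab change was 0.49 and that of all tested genes 0.05. Every melanoma library lay above every scale library for 21 Rab rows and below for 7, where this held for 21.7% and 15.2% of all tested genes. The calls that rose furthest were rab20 and rab34b, and those that fell furthest were rab11al and rab25a. With upper quartile scaling 11 Rab rows were higher and 13 lower, against a background of 15.1% and 21.2%. With total counts alone 33 were higher and 2 lower, against 40.6% and 6.65%. Without the first column of scale replicate 3, 10 Rab rows were higher, where 3986 of the 27281 genes tested in that fit were higher. Lower Rab rows numbered 4 without scale replicate 2 (4197 of 27567 of all genes) and 4 without melanoma replicate 2 (3543 of 27381). They numbered 5 without melanoma replicate 3 (3537 of 27177 of all genes) and 5 without melanoma replicate 4 (3188 of 27243).

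**Figure D1:**
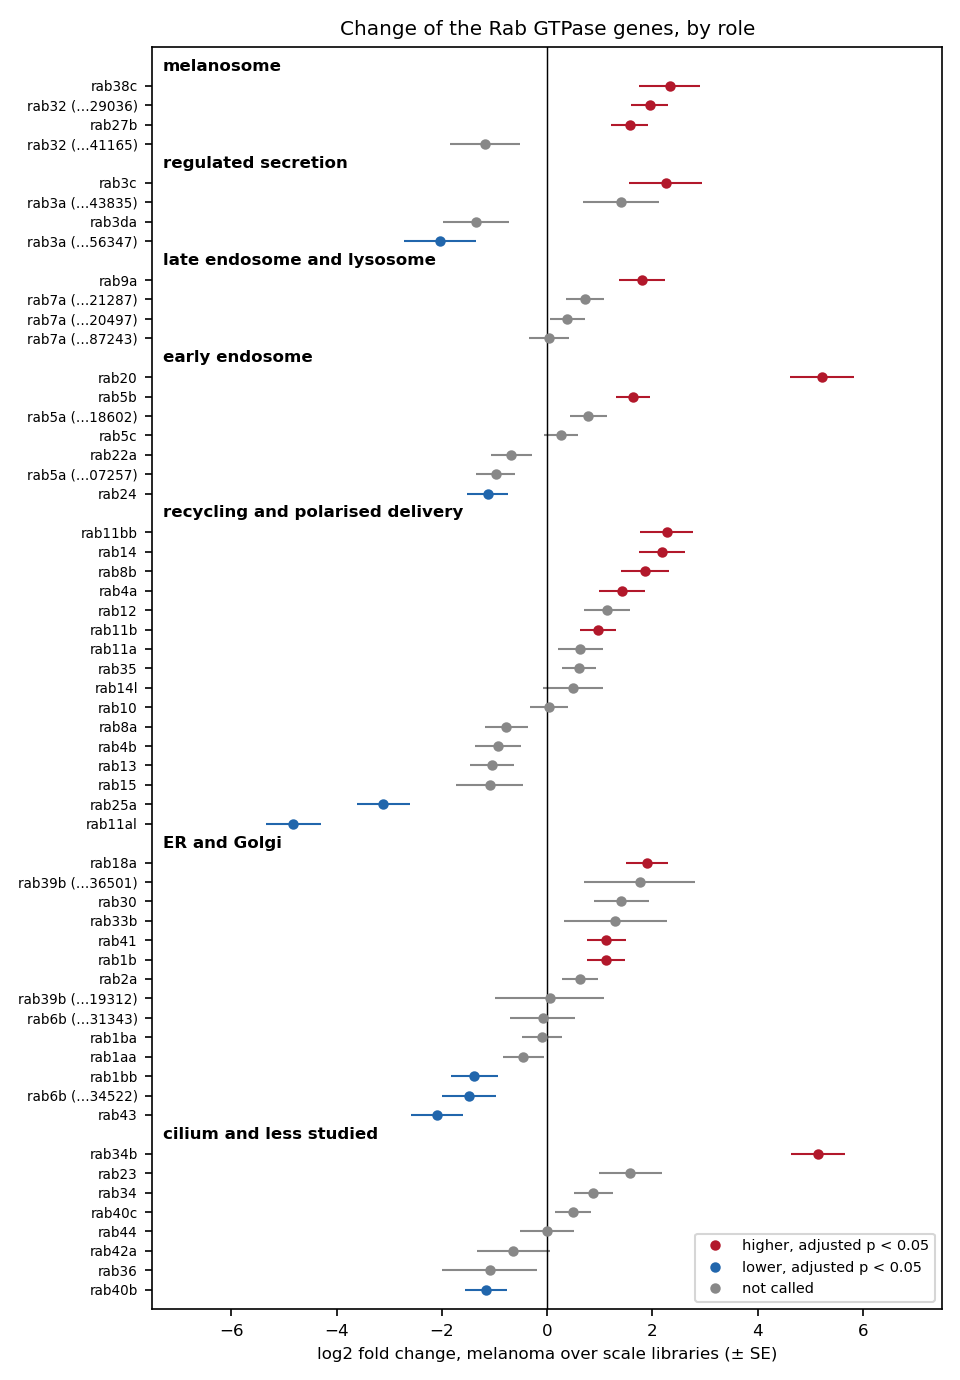
Log2 fold change of each of the 57 Rab rows, melanoma over scale libraries, on the horizontal axis, with bars of 1 SE, grouped by the role of the Rab number. Colours separate the 16 rows called higher, the 8 called lower and the 33 not called, and rab20 at 5.22 and rab11al at -4.82 mark the ends of the range.

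Rab rows together took more of the sequenced counts in melanoma. The share was 0.286, 0.312, 0.304 and 0.311% in melanoma libraries 1 to 4, against 0.0862, 0.0765, 0.0954 and 0.0768% in the scale libraries. Every melanoma share lay above every scale share. The 10 most counted genes took 5.83 to 6.51% of counts in melanoma, against 31.9 to 41.6% in the scale libraries, and the part of this in the Rab share was not tested. After TMM scaling, Rab levels summed to 1710, 2285, 2079 and 1962 CPM in melanoma and to 998, 1637, 1092 and 1427 CPM in the scale libraries. Here too the groups did not overlap, but the lowest melanoma sum, 1710 CPM, was close to the highest scale sum, 1637 CPM. No sum was taken with RLE or upper quartile scaling.

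The mix of Rab counts differed between the groups. Within Rab counts, the melanosome group took 4.96 ± 0.83% in melanoma and 2.21 ± 0.42% in the scale libraries, with ranges of 4.03 to 5.95% and 1.80 to 2.79%. The recycling and polarised delivery group took 26.8 ± 1.8% in melanoma and 31.7 ± 1.7% in the scale libraries, with ranges of 24.2 to 28.4% and 30.2 to 34%. These ranges did not overlap, nor did those of the cilium and less studied group, at 7.19 ± 1.08% in melanoma and 4.97 ± 0.67% in the scale libraries. Single rows carried much of these gaps. Within the cilium group, rab34b took a mean of 4.32% in melanoma and 0.202% in the scale libraries. That gap was wider than the gap of the group, and its other rows together took a smaller mean share in melanoma. Within the recycling group, rab11al took 0.0863% in melanoma and 3.69% in the scale libraries. Within the melanosome group, rab32 ENSDARG00000029036 took 3.58% in melanoma and 1.45% in the scale libraries. For early endosome Rabs the shares were 20.7 ± 1.5% in melanoma and 18.5 ± 1.2% in the scale libraries, for ER and Golgi Rabs 24 ± 2.6% and 26.7 ± 1.1%, and for late endosome Rabs 15.7 ± 2.3% and 15.2 ± 0.9%. The ranges of these groups overlapped. A share within Rab counts does not depend on the scaling between libraries, and no test was made on these sums.

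The counts by role that follow stand against the same 21.7% of all genes higher and 15.2% lower, and with 4 to 16 rows a role each row weighs heavily. Of the melanosome Rabs, 3 of 4 rows rose (75%) and none fell. These rows do not include the IDs of rab27a and rab38. The row of rab32 under ENSDARG00000029036, whose mammalian counterpart directs cargo to melanosomes, was at 58.5, 80.2, 51.6 and 96.1 CPM in melanoma, against 17.5, 22.9, 13.2 and 20.7 CPM in the scale libraries. Every melanoma library was above every scale library, and the log2 change was 1.95 ± 0.35 (edgeR adjusted p = 0.00119), or 3.86-fold. A further row with the symbol rab32, ENSDARG00000041165, was at 0.253 to 0.378 CPM in melanoma and 0.294 to 0.987 CPM in the scale libraries (log2 change -1.18 ± 0.66, edgeR adjusted p = 0.183). This further row was under 1 CPM in every library and overlapped between groups, so no direction is read from it. Of the rab32 rows, only the first was called.

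The gene rab27b (ENSDARG00000087762), of the group that ties melanosomes and secretory granules to their motors and docking sites, was at 16.4, 28.9, 25.5 and 16.5 CPM in melanoma, against 7.89, 5.58, 7.26 and 8.66 CPM in the scale libraries. The groups did not overlap, and the log2 change was 1.57 ± 0.35 (edgeR adjusted p = 0.00432). The gene rab38c (ENSDARG00000074719), of the group that works beside Rab32 in delivering tyrosinase family enzymes, was at 3.23, 10.8, 6.49 and 3.87 CPM in melanoma, against 1.52, 0.467, 1.94 and 0.902 CPM in the scale libraries. It was also higher in every melanoma library, with a log2 change of 2.33 ± 0.58 (edgeR adjusted p = 0.00838). Its call was lost without the 2 scale libraries that had the fewest genes at 10 counts, scale replicate 2 and the second column of replicate 3 (log2 change 1.78, adjusted p = 0.0511), and these are called the less complex libraries below. Of the pigment cell marker rows, 11 of 14 were higher in melanoma and none lower, and the part of pigment cell content in the melanosome Rab levels was not tested.

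Among the 7 early endosome rows, 2 rose (28.6%) and 1 fell (14.3%). The largest rise of the family with all libraries was that of rab20 (ENSDARG00000005049), which acts in the maturation of macropinosomes and phagosomes. It was at 58.7, 229, 61.6 and 47.9 CPM in melanoma, against 1.79, 2.85, 2.26 and 3.8 CPM in the scale libraries. Melanoma replicate 2 was far above the other melanoma libraries, and all 4 were above every scale library. The log2 change was 5.22 ± 0.61 (edgeR adjusted p = 9.03e-05), and without melanoma replicate 2 it was 4.40, still called but below the 4.85 of rab34b in the same fit. As a share of Rab counts, rab20 took a mean of 4.72% in melanoma and 0.206% in the scale libraries. Rab20 is also expressed by mammalian macrophages. The 8 leukocyte marker rows summed to between 314 and 3037 CPM in melanoma and between 1748 and 4347 CPM in the scale libraries. Most of these sums came from cd74a, at 958 ± 789 CPM in melanoma and 2436 ± 1145 CPM in the scale libraries. Changes were positive in 6 of the 8 rows and negative in 2, cd74a and cd74b, with 2 rows called higher and none lower. Each of the 8 leukocyte rows was highest in replicate 1 among melanoma libraries, and rab20 in replicate 2. The part of the leukocyte rows in the rab20 level was not tested.

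Rab5, which drives fusion of early endosomes, showed different values from row to row. The gene rab5b (ENSDARG00000016059) was at 52.2, 38.3, 39.9 and 53.5 CPM in melanoma, against 12.6, 17.9, 17.4 and 11.6 CPM in the scale libraries. The groups stood apart and were tight, with a log2 change of 1.63 ± 0.32 (edgeR adjusted p = 0.00216). The rab5a row ENSDARG00000018602, which had the highest mean CPM, uncorrected for length, of any Rab row in melanoma, though not the highest value in any single melanoma library, was at 165 ± 20 CPM in melanoma and 95.6 ± 31 CPM in the scale libraries. It did not overlap between groups but was not called (log2 change 0.78 ± 0.35, edgeR adjusted p = 0.0994). A further rab5a row, ENSDARG00000007257, was at 25.1 ± 6.8 CPM in melanoma and 49.5 ± 19.6 CPM in the scale libraries (log2 change -0.98 ± 0.37, edgeR adjusted p = 0.0585, and 0.30 with total counts). The row of rab24 (ENSDARG00000054032), a Rab of autophagy, fell to 7.03, 5.60, 3.63 and 3.37 CPM in melanoma, against 8.17, 13.4, 8.48 and 12.9 CPM in the scale libraries (log2 change -1.13 ± 0.39, edgeR adjusted p = 0.0400). That call was lost in 5 of the 8 fits that leave out 1 library (scale replicate 2, the second column of scale replicate 3 and melanoma replicates 2, 3 and 4), with rab24 adjusted p between 0.0576 and 0.114, and with total counts its log2 change was 0.12.

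**Figure D2:**
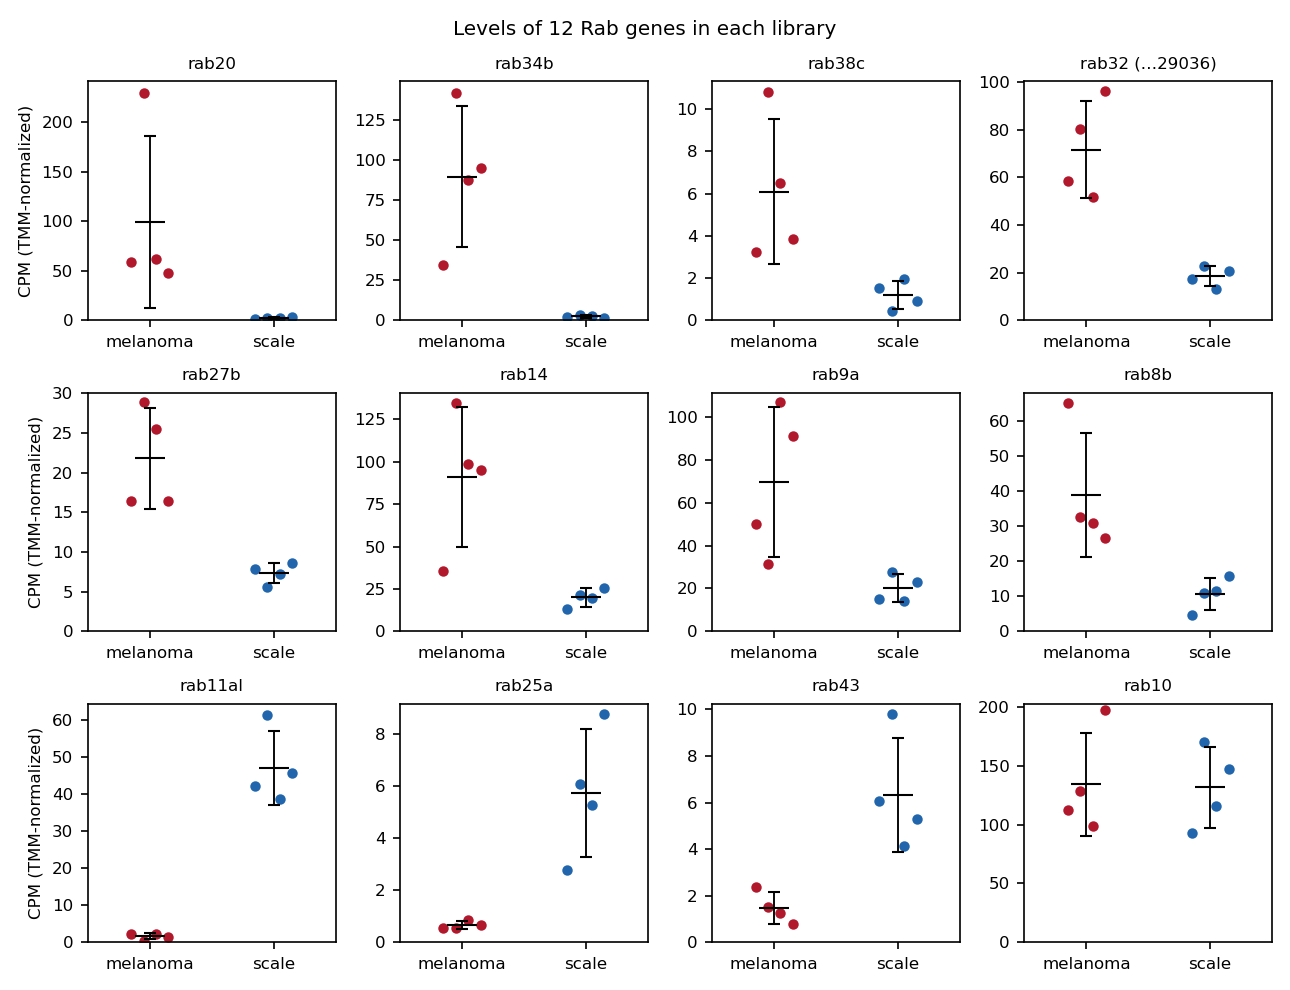
TMM-scaled CPM of 12 Rab rows in each library, 1 panel per row with its own linear axis, melanoma at the left and scale libraries at the right, with a bar at each mean. For rab20, melanoma replicate 2 at 229 CPM lies far above the other libraries, and for rab11al all 4 scale libraries, from 38.7 to 61.4 CPM, lie above all 4 melanoma libraries.

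Recycling and polarised delivery was the largest role, with 16 rows, of which 5 rose (31.2%) and 2 fell (12.5%). The strongest fall of the family was in rab11al (ENSDARG00000014340), by its symbol a gene of the Rab11 group, whose members return endocytosed cargo to the cell surface. It was at 2.3, 0.504, 2.35 and 1.48 CPM in melanoma, against 42.3, 61.4, 38.7 and 45.8 CPM in the scale libraries. All melanoma libraries were far below all scale libraries, and the log2 change was -4.82 ± 0.52 (edgeR adjusted p = 5.52e-05), 28.3-fold lower. It took a mean of 0.0863% of Rab counts in melanoma and 3.69% in the scale libraries. The related rab25a (ENSDARG00000058800), of a Rab11 subgroup typical of mammalian epithelia, was at 0.544, 0.567, 0.867 and 0.670 CPM in melanoma, against 2.79, 6.09, 5.27 and 8.77 CPM in the scale libraries. It was low in every melanoma library, with a log2 change of -3.11 ± 0.50 (edgeR adjusted p = 0.000609). Both calls held in all 8 fits that leave out 1 library and under each of the 5 scalings. Epidermal marker rows moved with them: all 12 were lower in melanoma and none was at 0 in a whole group, and their part in the rab11al and rab25a levels was not tested.

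Other genes of the Rab11 group moved the opposite way or were not called. The gene rab11bb (ENSDARG00000090086) was at 5.91, 7.94, 5.30 and 2.57 CPM in melanoma, against 1.27, 0.622, 1.27 and 1.34 CPM in the scale libraries. Melanoma was above in every library, with a log2 change of 2.27 ± 0.50 (edgeR adjusted p = 0.00414). The gene rab11b (ENSDARG00000041878), chosen after seeing its values, was at 101 ± 10 CPM in melanoma and 51.9 ± 17.1 CPM in the scale libraries (log2 change 0.96 ± 0.34, edgeR adjusted p = 0.0434), a rab11b call that was lost in each of the 8 fits that leave out 1 library (adjusted p between 0.0647 and 0.282). The gene rab11a (ENSDARG00000041450) was at 91.2 ± 49.4 CPM in melanoma and 58.8 ± 19.6 CPM in the scale libraries and was not called (log2 change 0.63 ± 0.43, edgeR adjusted p = 0.266).

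Of the Rabs that act between the Golgi, endosomes and the surface, rab14 (ENSDARG00000074246) was at 35.5, 135, 98.5 and 95.3 CPM in melanoma, against 13, 21.8, 19.6 and 25.9 CPM in the scale libraries. Every melanoma library was higher, with a log2 change of 2.18 ± 0.44 (edgeR adjusted p = 0.00224), or 4.54-fold. The gene rab8b (ENSDARG00000068628), of the Rab8 group that guides vesicles from the Golgi to the surface and the cilium, was at 65.2, 32.6, 31 and 26.7 CPM in melanoma, against 4.55, 10.9, 11.7 and 15.7 CPM in the scale libraries. Melanoma replicate 1 stood above the rest of its group, no library overlapped, and the log2 change was 1.86 ± 0.45 (edgeR adjusted p = 0.00686). The rab8b call held in all 8 fits that leave out 1 library. Among melanoma libraries, replicate 1 was also highest in each of the 8 leukocyte rows. The 4 red blood cell rows summed to between 3.03 and 326 CPM in melanoma and between 6.44 and 12.7 CPM in the scale libraries, with alas2 at 129 CPM in melanoma replicate 1. The part of blood cells in the rab8b level was not tested. Fast recycling is the task of Rab4, and rab4a (ENSDARG00000019144) was at 9.37, 17.3, 14 and 10.9 CPM in melanoma, against 3.91, 8.05, 5.03 and 2.31 CPM in the scale libraries (log2 change 1.42 ± 0.44, edgeR adjusted p = 0.0235). The rab4a call was lost without melanoma replicate 2 (adjusted p = 0.0592), without scale replicate 1 (0.0922) and without the first (0.0818) or the second (0.0723) column of scale replicate 3. The gene rab10 (ENSDARG00000046106), a Rab of surface delivery and the one with the highest CPM, uncorrected for length, in each scale library, was at 134 ± 44 CPM in melanoma and 132 ± 34 CPM in the scale libraries, and its libraries overlapped (log2 change 0.03 ± 0.36, edgeR adjusted p = 0.958, and -0.13 with RLE scaling). The 9 recycling rows without a call had log2 changes between -1.09 for rab15 and 1.13 for rab12.

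At the ER and the Golgi, 3 of 14 rows rose and 3 fell (21.4% each), so the share of rises was that of all genes. The gene rab18a (ENSDARG00000055291), of the group found on the ER and on lipid droplets, was at 18.5, 10.8, 26.8 and 29.3 CPM in melanoma, against 6.01, 4.22, 5.80 and 6.88 CPM in the scale libraries. All melanoma libraries were higher, with a log2 change of 1.90 ± 0.39 (edgeR adjusted p = 0.00287). On the ER to Golgi step, rab1b (ENSDARG00000029663) was at 154 ± 42 CPM in melanoma and 70.9 ± 20.4 CPM in the scale libraries (log2 change 1.12 ± 0.36, edgeR adjusted p = 0.0302). Of the same Rab number, rab1ba (log2 change -0.11 ± 0.38, edgeR adjusted p = 0.848) and rab1aa (-0.45 ± 0.40, edgeR adjusted p = 0.390) overlapped between groups and were not called. The gene rab41 (ENSDARG00000029885), a Golgi Rab chosen after seeing its values, was at 19.7 ± 5.8 CPM in melanoma and 9.04 ± 2.38 CPM in the scale libraries (log2 change 1.12 ± 0.37, edgeR adjusted p = 0.0304). The rab1b call held in 1 of the 8 fits that leave out 1 library, that without melanoma replicate 1, and was lost in the others at adjusted p between 0.0511 and 0.185. The rab41 call held in 2, those without melanoma replicate 1 or 3, and was lost in the others at adjusted p between 0.0505 and 0.180. Both genes missed the threshold with RLE scaling too (adjusted p = 0.0939 for rab1b and 0.0845 for rab41).

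Lower in melanoma was rab43 (ENSDARG00000059404), a Golgi Rab, at 2.38, 1.51, 1.24 and 0.781 CPM, against 6.08, 9.80, 4.13 and 5.29 CPM in the scale libraries. The groups did not overlap, and the log2 change was -2.09 ± 0.49 (edgeR adjusted p = 0.00597), a call that held without any 1 library but not with total counts (log2 change -0.84, adjusted p = 0.220). The gene rab1bb (ENSDARG00000056479) was at 3.21 ± 1.57 CPM in melanoma and 8.38 ± 1.89 CPM in the scale libraries (log2 change -1.38 ± 0.44, edgeR adjusted p = 0.0287), and the rab1bb call was lost without scale replicate 2 (adjusted p = 0.0594), without melanoma replicate 3 (0.0723) and without melanoma replicate 4 (0.0784). The rab6b row ENSDARG00000034522, of a Golgi Rab that is abundant in mammalian brain, was at 5.0, 3.69, 9.10 and 4.99 CPM in melanoma, against 22.8, 7.40, 26.6 and 6.84 CPM in the scale libraries. Here the scale libraries split, with replicate 1 and the first column of replicate 3 high and the other two, the less complex libraries, within the melanoma range (log2 change -1.48 ± 0.52, edgeR adjusted p = 0.0412). That rab6b call was lost in 5 of the 8 fits that leave out 1 library (scale replicate 1, the first column of scale replicate 3 and melanoma replicates 1, 2 and 4), with rab6b ENSDARG00000034522 adjusted p between 0.0682 and 0.0992. The other rab6b row, ENSDARG00000031343, was at 1.66 ± 1.17 CPM in melanoma and 1.77 ± 0.49 CPM in the scale libraries. It overlapped between groups and was not called (log2 change -0.09 ± 0.62, edgeR adjusted p = 0.925). The ubiquitous rab2a (ENSDARG00000020261), which acts between the ER and the Golgi, was at 160 ± 18 CPM in melanoma and 104 ± 32 CPM in the scale libraries and was not called (log2 change 0.62 ± 0.34, edgeR adjusted p = 0.176).

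Of the 4 late endosome rows, the rise of rab9a (ENSDARG00000045027), which returns cargo from late endosomes to the Golgi, was the one call. It was at 49.9, 31.5, 107 and 91.1 CPM in melanoma, against 15, 27.9, 14.3 and 23.1 CPM in the scale libraries. The lowest melanoma library, replicate 2, was just above the highest scale library, and the log2 change was 1.80 ± 0.44 (edgeR adjusted p = 0.00755). Without the first column of scale replicate 3 the rab9a call was lost, with a value at the threshold (adjusted p = 0.050). The 3 rows of rab7a, the main Rab of late endosomes and lysosomes, overlapped between groups and had log2 changes between 0.04 and 0.71, with none called.

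Among regulated secretion Rabs, 1 of 4 rows rose and 1 fell, and no row stood apart in all libraries. The gene rab3c (ENSDARG00000014462), of the Rab3 group that serves synaptic vesicles and granules, was at 4.21, 1.64, 12.1 and 6.88 CPM in melanoma, against 2.40, 1.0, 1.43 and 0.378 CPM in the scale libraries. Melanoma replicate 2 lay below scale replicate 1, and the log2 change was 2.25 ± 0.69 (edgeR adjusted p = 0.0235). The rab3c call was lost without the first column of scale replicate 3 (adjusted p = 0.0559), without scale replicate 2 (0.0560) and without melanoma replicate 3 (0.0843). The rab3a row ENSDARG00000056347 was at 0.703, 1.04, 0.546 and 1.82 CPM in melanoma, against 5.51, 6.71, 3.91 and 0.713 CPM in the scale libraries. The second column of scale replicate 3 lay within the melanoma range, and the log2 change was -2.03 ± 0.68 (edgeR adjusted p = 0.0335). It was lost in 5 of the 8 fits that leave out 1 library (scale replicates 1 and 2 and melanoma replicates 1, 2 and 3), with rab3a ENSDARG00000056347 adjusted p between 0.0601 and 0.0836. The other rab3a row, ENSDARG00000043835, had a positive change, with 4.27 ± 2.68 CPM in melanoma and 1.62 ± 1.39 CPM in the scale libraries. It overlapped between groups and was not called (log2 change 1.39 ± 0.72). The 6 neuronal marker rows summed to between 5.0 and 17.9 CPM in melanoma and between 11.2 and 45.3 CPM in the scale libraries, with none called, and their part in the Rab3 levels was not tested.

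In the last group, Rabs of the cilium and less studied ones, 1 of 8 rows rose and 1 fell (12.5% each). The gene rab34b (ENSDARG00000010977), of the Rab34 group that acts in the formation of cilia and the placing of lysosomes, was at 34.5, 142, 87.5 and 95 CPM in melanoma, against 2.35, 3.38, 2.76 and 1.64 CPM in the scale libraries. All melanoma libraries were far above all scale libraries, with a log2 change of 5.15 ± 0.51 (edgeR adjusted p = 3.49e-05), or 35.5-fold, and between 4.85 and 5.42 when any 1 library was left out. It took a mean of 4.32% of Rab counts in melanoma and 0.202% in the scale libraries. The gene rab40b (ENSDARG00000042410), of a group with a SOCS box that recruits ubiquitin ligases, was at 12.6 ± 5.4 CPM in melanoma and 28.3 ± 9.3 CPM in the scale libraries (log2 change -1.16 ± 0.40, edgeR adjusted p = 0.0399). The rab40b call was lost without scale replicate 1 (adjusted p = 0.0570), scale replicate 2 (0.0895), melanoma replicate 2 (0.0971) or melanoma replicate 3 (0.104), and with total counts its log2 change was 0.08.

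Genes that share a Rab number were also set against each other within each library, which takes the scaling between libraries out of the comparison. There were 33 such pairs over 11 numbers, many of them with a gene in common. The groups did not overlap in 19 pairs and overlapped in the others, and the pairs below were picked with their values in view. No share over pairs of other genes was computed, so the count of 19 is not read as a trait of Rabs. Among single genes, every melanoma library stood above every scale library for 21.7% of all tested genes and below for 15.2%. The log2 ratio of rab11a over rab11al, with 0.5 added to each count, lay between 4.74 and 8.30 in melanoma and between 0.01 and 0.59 in the scale libraries. The log2 ratio of rab34 over rab34b lay between -4.34 and -1.87 in melanoma and between 0.27 and 1.90 in the scale libraries, while rab34 itself (ENSDARG00000045628) was not called (8.15 ± 0.99 CPM in melanoma and 4.45 ± 1.32 CPM in the scale libraries, log2 change 0.87 ± 0.37, edgeR adjusted p = 0.0839). Neither pair overlapped between groups.

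For rab8a over rab8b the log2 ratio was between -4.61 and -3.42 in melanoma and between -1.99 and -0.08 in the scale libraries, with rab8a (ENSDARG00000067920) at 2.36 ± 0.26 CPM in melanoma and 4.04 ± 1.07 CPM in the scale libraries (log2 change -0.77 ± 0.41, edgeR adjusted p = 0.162, and 0.37 with total counts). For rab1b over rab1bb it was between 4.86 and 6.76 in melanoma and between 2.68 and 3.55 in the scale libraries. For the rab5a rows, ENSDARG00000007257 over ENSDARG00000018602, it was between -3.17 and -2.51 in melanoma and between -1.18 and -0.75 in the scale libraries, and these ranges stood apart although neither row was called. The log2 ratio of rab4a over rab4b overlapped, at -0.41 to 2.40 in melanoma and -2.88 to -0.38 in the scale libraries. The counting of reads that match several genes is not given in the sources used here. Close copies can have shared or lost reads and values of same-numbered genes are uncertain to that extent.

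**Figure D3:**
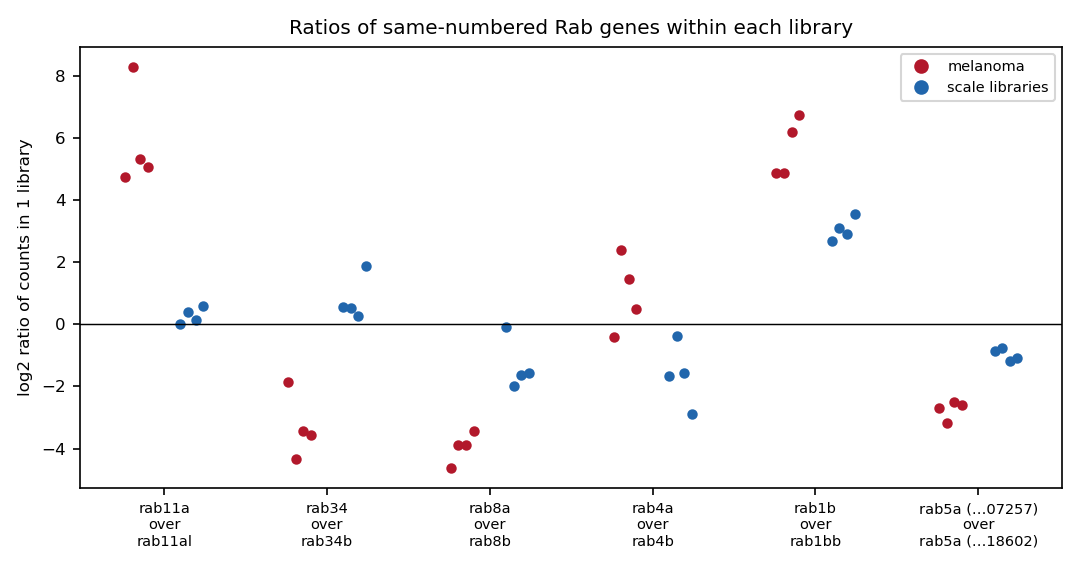
Log2 ratio of counts between 6 pairs of same-numbered Rab rows within each library, with melanoma at the left and scale libraries at the right for each pair. The vertical axis is the log2 ratio with 0.5 added to each count, and the groups are apart in 5 pairs and overlap for rab4a over rab4b.

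The proteins that load, recycle and read Rabs were described with 5 lists of 162 gene names, of which 132 matched 150 rows. Over these lists 46 rows rose (30.7%) and 20 fell (13.3%), where 21.7% of all tested genes rose and 15.2% fell, and the median log2 change was 0.58. With upper quartile scaling 35 were higher and 30 lower, against a background of 15.1% and 21.2%, and with total counts 95 were higher and 6 lower, against 40.6% and 6.65%. The backgrounds of each scaling apply to the single lists too. Prenylation and recycling factors rose in 4 of 6 rows and fell in none, with a median of 1.95, and the same counts were found with upper quartile scaling. The subunits of Rab geranylgeranyl transferase rose together, rabggta by 2.06 ± 0.39 on the log2 scale (edgeR adjusted p = 0.00173) and rabggtb, chosen after seeing its values, by 2.21 ± 0.43 (edgeR adjusted p = 0.00185).

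Among exchange factors, 15 of 43 rows rose (34.9%, against 21.7% of all genes) and 3 fell (6.98%, against 15.2%), with a median of 0.78. With upper quartile scaling 11 were higher and 8 lower, and with total counts 30 and 1. The pair that activates Rab32 and Rab38 in mammals rose. Its subunit hps1 was at 121 ± 82 CPM in melanoma and 7.32 ± 2.60 CPM in the scale libraries, with no overlap (log2 change 4.05 ± 0.53, edgeR adjusted p = 0.000165). Its subunit hps4, chosen after seeing its values, was at 39.9 ± 14.4 CPM in melanoma and 3.92 ± 1.70 CPM in the scale libraries (log2 change 3.34 ± 0.45, edgeR adjusted p = 0.000196). For the Rab7 exchange factor, the mon1b row ENSDARG00000035686 was at 63.4, 108, 141 and 110 CPM in melanoma, against 1.40, 0.867, 0.659 and 0.0629 CPM in the scale libraries. It was the largest rise of the 5 lists (log2 change 7.13 ± 0.78, edgeR adjusted p = 5.73e-05), beside rab7a rows without a call. A further mon1b row, ENSDARG00000077434, was not called (log2 change 1.90 ± 0.73, edgeR adjusted p = 0.0590). Nor was mon1a, whose change was negative (-0.83 ± 0.41, edgeR adjusted p = 0.135). The mon1b partner ccz1, chosen after seeing its values, was at 48.9 ± 16.9 CPM in melanoma and 21.2 ± 4.5 CPM in the scale libraries (log2 change 1.2 ± 0.35, edgeR adjusted p = 0.0193), a call lost in 6 of the 8 fits that leave out 1 library, those without any 1 of the scale libraries and without melanoma replicate 3 or 4.

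Of the exchange factors that fell, the Rab5 factor rin2 in row ENSDARG00000077040 was at 8.04 ± 3.49 CPM in melanoma and 61.0 ± 18.4 CPM in the scale libraries (log2 change -2.92 ± 0.42, edgeR adjusted p = 0.000301), and dennd5b was at 8.09 ± 1.77 CPM in melanoma and 26.1 ± 5.9 CPM in the scale libraries (log2 change -1.69 ± 0.34, edgeR adjusted p = 0.00242). A further rin2 row, ENSDARG00000074589, was at 32.4 ± 16.7 CPM in melanoma and 59.5 ± 21.3 CPM in the scale libraries. It overlapped between groups and was not called (log2 change -0.88 ± 0.42, edgeR adjusted p = 0.123). The dennd5b call was lost with total counts (edgeR adjusted p = 0.278). The related dennd5a, chosen after seeing its values, went the opposite way. It was at 59.2 ± 15.9 CPM in melanoma and 13.6 ± 2.4 CPM in the scale libraries (log2 change 2.13 ± 0.34, edgeR adjusted p = 0.000591). Among GAPs, 8 of 35 rows rose (22.9%) and 5 fell (14.3%), with a median of 0.50, and these shares are near those of all genes (21.7% and 15.2%). With upper quartile scaling 3 were higher and 6 lower (median 0.06), and with total counts 22 and 0. The Rab7 GAP tbc1d5 was at 150 ± 41 CPM in melanoma and 21.6 ± 5.5 CPM in the scale libraries (log2 change 2.80 ± 0.37, edgeR adjusted p = 0.000174), and sgsm3 rose by 2.81 ± 0.38 on the log2 scale (edgeR adjusted p = 0.000217). Its relative sgsm2 had a log2 change of -1.76 ± 0.51 (edgeR adjusted p = 0.0182) and tbc1d8b one of -1.97 ± 0.47 (edgeR adjusted p = 0.00606), a call lost without the less complex libraries (adjusted p = 0.0537). With total counts both calls were lost (edgeR adjusted p = 0.415 for sgsm2 and 0.253 for tbc1d8b).

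**Figure D4:**
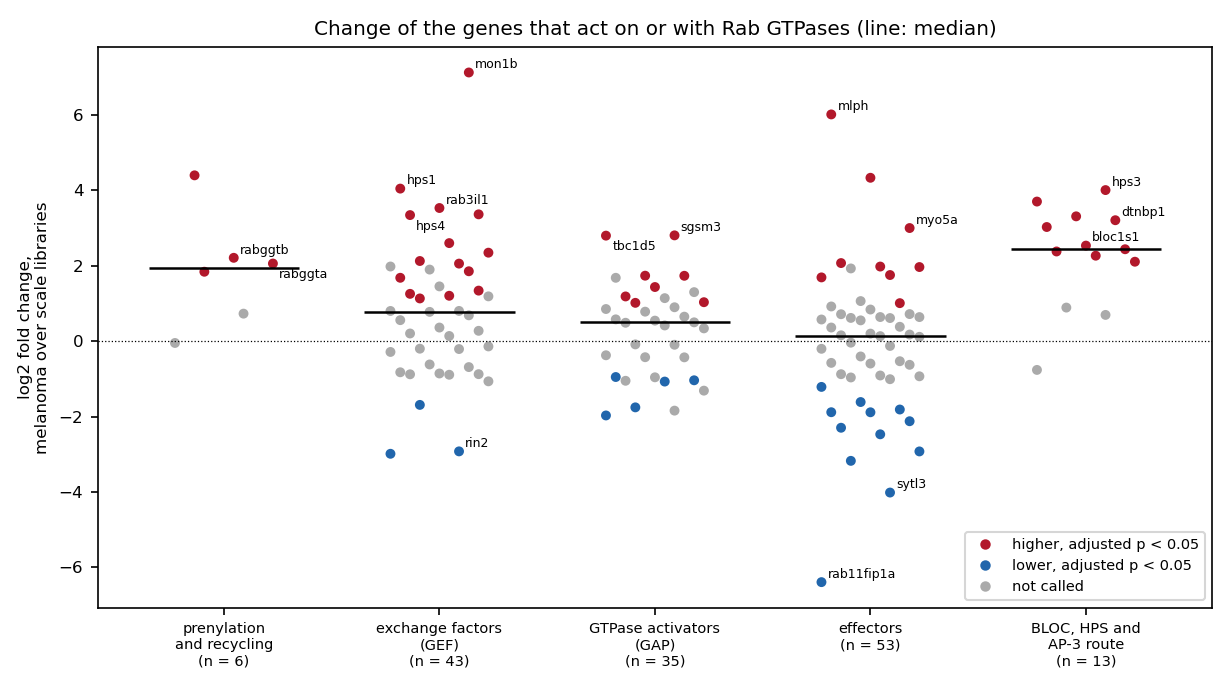
Log2 fold change, melanoma over scale libraries, of each row of the 5 machinery lists, 1 column of points per list, with a line at each median and some genes of the text labelled. Colours separate called from uncalled rows, and the medians run from 0.13 for effectors to 2.44 for the BLOC, HPS and AP-3 cargo route.

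Effectors went both ways, with 9 of 53 rows higher (17%, against 21.7% of all genes) and 12 lower (22.6%, against 15.2%). Their median of 0.13 turned negative with RLE (-0.0033) and upper quartile scaling (-0.32) and stood at 1.27 with total counts, where 25 were higher and 5 lower. The melanosome adaptor melanophilin (mlph) was at 442, 311, 240 and 215 CPM in melanoma, against 6.17, 7.94, 3.93 and 0.650 CPM in the scale libraries (log2 change 6.01 ± 0.73, edgeR adjusted p = 0.000107). Its motor myo5a was at 84.0, 227, 115 and 54.9 CPM in melanoma, against 14.9, 17, 18 and 10.2 CPM in the scale libraries (log2 change 3.0 ± 0.47, edgeR adjusted p = 0.000523). Neither gene overlapped between groups. Its relative myo5ab, chosen after seeing its values, went the opposite way, with 1.11 ± 0.65 CPM in melanoma and 4.83 ± 1.09 CPM in the scale libraries (log2 change -2.12 ± 0.57, edgeR adjusted p = 0.0120). The myo5ab call was lost with total counts (edgeR adjusted p = 0.203). The furthest fall of the 5 lists was in rab11fip1a, an effector of Rab11 and Rab25, at 0.819, 0.378, 0.990 and 0.387 CPM in melanoma, against 38.6, 72.8, 48.8 and 56.7 CPM in the scale libraries (log2 change -6.39 ± 0.50, edgeR adjusted p = 1.08e-05). It stood beside the falls of rab11al and rab25a, with the same epidermal markers moving along, whose part was not tested. The related rab11fip1b and rab11fip3 overlapped between groups and were not called. Their log2 changes were -0.63 ± 0.46 (edgeR adjusted p = 0.303) and -0.93 ± 0.43 (edgeR adjusted p = 0.111). The rab11fip4 row was called lower, with overlap (log2 change -2.30 ± 0.75, edgeR adjusted p = 0.0307).

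Synaptotagmin-like proteins bind Rab27 in mammals, and sytl3 was at 1.33 ± 0.42 CPM in melanoma and 21.5 ± 5.5 CPM in the scale libraries (log2 change -4.02 ± 0.41, edgeR adjusted p = 3.91e-05). The gene sytl1, chosen after seeing its values, was at 1.1 ± 0.71 CPM in melanoma and 9.94 ± 2.21 CPM in the scale libraries (log2 change -3.18 ± 0.55, edgeR adjusted p = 0.000921). The other 3 synaptotagmin-like rows were not called, with log2 changes between -1.01 and 1.93. The route that hands cargo to melanosomes and other lysosome-related organelles, made of BLOC, HPS and AP-3 subunits, rose in 10 of 13 rows (76.9%, against 21.7% of all genes) and fell in none, with a median of 2.44. With upper quartile scaling 10 were higher and 1 lower, and with total counts 12 and 0. Pigment cell markers moved with this route, 11 of 14 rows higher and sums of 2130 to 12289 CPM in melanoma and 77.3 to 132 CPM in the scale libraries, and their part was not tested. The subunit dtnbp1 of this route was at 57.6 ± 22.7 CPM in melanoma and 6.23 ± 0.50 CPM in the scale libraries (log2 change 3.21 ± 0.38, edgeR adjusted p = 9.12e-05), and bloc1s1 was at 18.3 ± 3.4 CPM in melanoma and 3.15 ± 0.56 CPM in the scale libraries (log2 change 2.53 ± 0.35, edgeR adjusted p = 0.000233). The related dtnbp1b had the only negative change among the 13 rows of this route. It overlapped between groups and was not called (log2 change -0.76 ± 0.43, edgeR adjusted p = 0.188).

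The scaling between libraries bore on direction for the smaller changes. The median change of all genes was 0.05 with TMM, -0.06 with RLE, -0.39 with upper quartile scaling and 1.17 with total counts, and the median Rab change in the same order was 0.49, 0.33, 0.04 and 1.78. Of the 16 rows called higher, 11 were called and all 16 kept a positive change under each of 5 scalings, which include the authors' size factors. Of the 8 called lower, 2 (rab11al and rab25a) were called and 6 kept a negative change under each, the exceptions being rab24 and rab40b with total counts. Leaving out each library in turn, 13 of the 24 calls held in all 8 fits, 10 of them higher and 3 lower (rab11al, rab25a and rab43). Without the less complex scale libraries the calls of rab38c, rab3c, rab1bb, rab24 and rab40b were lost, and with limma-voom those of rab3c, rab3a ENSDARG00000056347 and rab6b ENSDARG00000034522. Upper quartile scaling ended the calls of rab3c, rab4a, rab1b, rab41 and rab11b, and RLE scaling those of rab1b, rab41 and rab11b. The 33 rows without a call had log2 changes between -1.35 and 1.76, 19 positive and 14 negative, and a missed threshold does not show that a row was unchanged.

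**Figure D5:**
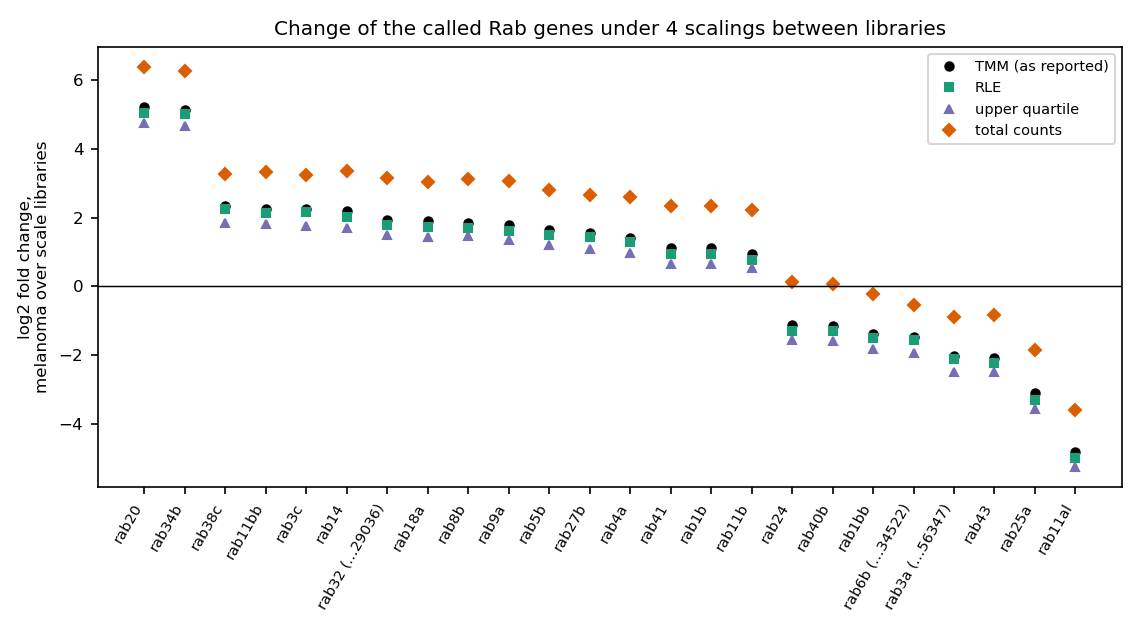
Log2 fold change of the 24 called Rab rows, melanoma over scale libraries, under 4 scalings between libraries, with rows in the order of their TMM value. Total counts give the highest value for every row shown and upper quartile the lowest, and rab24 and rab40b are above 0 with total counts alone.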

How the data were processed

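Read counts per gene were deposited by the authors as whole numbers for 28272 Ensembl gene IDs, and a second deposited table holds the same counts as normalized signal, divided by 1 size factor per library. STAR 2.3, HTSeq, DESeq2 and the build Zv9 are named, without role or order, in the submitters' processing notes. The sources used here do not give the annotation release, the strand setting or how reads with several alignments were handled. RNA came from Trizol and TruSeq libraries, per the labels' protocols. No library pair agreed within counting noise (smallest chi-square per degree of freedom 139). Symbols were found for 19599 IDs.

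Genes kept by filterByExpr (26749) went into the quasi-likelihood test of edgeR 4.0.16 with TMM factors and group as its term, in R 4.3.3, at an adjusted p of 0.05. SEs are approximate: the change over the root of its F statistic. The test was checked on simulated counts. Named genes were every rab27, rab32 and rab38 row; of the called Rabs the 10 highest and 10 lowest changes with a mean of at least 1 CPM; up to 2 called members per role and direction; the most counted Rab row of each group; and per machinery list the 2 best calls in each direction by adjusted p. Members and lists were chosen with earlier results of these data known. Alternatives were DESeq2 1.42.0, limma-voom 3.58.1, other scalings, filters and thresholds, a block on replicate number, and omission of each library. Leaving out the less complex scale libraries was chosen after seeing the data. Depth leaves counting error small above 1 CPM. Tables and figures used Python 3.11.15, pandas 2.3.3 and matplotlib 3.10.9. An item on the labels and a gene that the naming rule takes are not reported here.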

Additional observations from a re-analysis of the deposited data

Results flagged for a closer look

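Among 54 groups of 4 library values checked for the named Rab rows, 4 held a library far from the other 3, where chance flags about 1 in 20 groups. In melanoma, rab20 reached 229 CPM in replicate 2, against 47.9 to 61.6 CPM in the other 3 melanoma libraries. In melanoma, rab8b reached 65.2 CPM in replicate 1, against 26.7 to 32.6 CPM in the other 3. In melanoma, the rab32 row ENSDARG00000041165 was at 0.378 CPM in replicate 2, against 0.253 to 0.263 CPM in the other 3. In the scale libraries, rab11bb was at 0.622 CPM in replicate 2, against 1.27 to 1.34 CPM in the other 3.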

How the results depend on the processing

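Over 58 single genes, 977 of 1149 alternative values kept direction and side of the threshold, 144 lost the call, 15 gained one and 13 reversed. With total counts, rab40b stood at 0.083, rab24 at 0.12, rab5a ENSDARG00000007257 at 0.30 and rab8a at 0.37 on the log2 scale. The uncalled rab10 was at -0.56 with a filter of 5 CPM in 4 libraries, -0.13 with DESeq2, RLE or the authors' size factors, -0.41 with upper quartile scaling, and between -0.30 and 0.16 when 1 library was left out. Higher and lower Rab calls numbered 16 and 8 as reported. With the 5 CPM filter, which left 12183 genes to test, 10 Rab rows were higher, where 3272 of all genes were. With total counts the Rab calls were 33 and 2 (all genes 40.6% and 6.65%). Upper quartile scaling gave 13 lower Rab rows (all genes 21.2%). Without the less complex scale libraries 5 were lower (5006 of 28058 of all genes), and 3 at an adjusted p of 0.01 (2412 of 26749). Leaving out 1 library gave 10 to 16 higher and 4 to 9 lower Rab calls, 34 to 48 and 14 to 21 machinery calls, 3981 to 5822 and 3188 to 4653 calls over all genes, and a ratio of the Rab shares of counts, melanoma over scale, between 3.52 and 3.8. Machinery calls were 95 higher and 6 lower with total counts and 12 lower at 0.01. All genes gave 3272 higher of 12183 tested with the 5 CPM filter. Of 26749 tested, 10873 were higher and 1778 lower with total counts, and 3565 and 2412 at 0.01. The cause was not tested. The labels name no source shared by same-numbered libraries. Their deviations correlated at -0.0186 (number 1) and 0.107 (number 2), and melanoma replicate 3 correlated at 0.172 with the first and -0.152 with the second column of scale replicate 3, so pairing was not established. With the replicate block, lower Rab calls were 5 or 4, depending on which column of replicate 3 took number 3. Lower calls over all genes were 3596 or 3307 of 26749 in the same order. With the block on replicates 1 and 2 only, 2 Rab rows were higher and 1 lower, 13 and 3 machinery rows, and 939 and 1109 of all genes. Counts of reads under 1 CPM limit the row of rab32 under ENSDARG00000041165 and the melanoma level of rab25a.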

Other observations

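Other partners of the Rabs, picked after their values were seen, also differed between the groups. The exchange factor rab3il1, which activates Rab8 in mammals, was at 15.4, 59.4, 57.0 and 31.1 CPM in melanoma, against 2.12, 1.93, 3.43 and 6.61 CPM in the scale libraries, and the groups did not overlap (log2 change 3.53 ± 0.56, edgeR adjusted p = 0.000557). The Rab5 effector eea1, an endosome tether, was at 10.2 ± 2.9 CPM in melanoma and 3.03 ± 1.31 CPM in the scale libraries (log2 change 1.75 ± 0.44, edgeR adjusted p = 0.00843). The Rab7 effector rilp, which links lysosomes to dynein, was at 3.25 ± 1.2 CPM in melanoma and 12 ± 4.8 CPM in the scale libraries (log2 change -1.89 ± 0.42, edgeR adjusted p = 0.00438). With total counts the rilp call was lost (edgeR adjusted p = 0.286). A second melanophilin gene, mlphb, was at 6.24, 1.73, 30.8 and 30.2 CPM in melanoma, against 0.707, 0.778, 1.17 and 0.755 CPM in the scale libraries, so melanoma replicates 3 and 4 carried most of it (log2 change 4.33 ± 0.81, edgeR adjusted p = 0.00145). The BLOC-2 subunit hps3 was at 41.8 ± 19.9 CPM in melanoma and 2.60 ± 1.62 CPM in the scale libraries (log2 change 4.01 ± 0.57, edgeR adjusted p = 0.000283).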
